A study of Nicotiana tabacum with 30 samples.

Results

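The 24 genes described here had gained less than 1 on a log2 scale in tobacco (Nicotiana tabacum) leaves at 1 h and 2 h of drought, at least 1 at 4 h and at least 2 at 8 h, in the mutant M28 and in its parent K326 alike. They were chosen from 35519 gene IDs, of which 19599 averaged 1 FPKM or more across the 30 libraries and were considered. FPKM counts sequenced fragments relative to the length of the gene and to the size of the library, so levels can be set side by side between genes. A gene was a member when, in each genotype, its mean of log2(FPKM + 1) lay less than 1 above the 0 h mean at 1 h and at 2 h, at least 1 above it at 4 h and at least 2 above it at 8 h, with 8 h at or above 4 h. The course from 0 h therefore chose the members, and their rise is a description: where limma calls on it are counted, the rule shaped the count and it supports nothing. The rule was met by 59 genes in M28, by 84 in K326 and by 24 in both.

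M28 was sampled at 0, 1, 2, 4 and 8 h of drought and K326 at the same times, with 3 leaf libraries in each of the 10 groups. M28 is 1 line obtained from K326 by mutagenesis with ethyl methanesulfonate, and the submitters describe it as more resistant to drought; K326 is a cultivar of flue-cured tobacco. Both genotypes were grown in pots and treated when they had 5 full leaves. Drought is described both as a natural one and as one imitated by mannitol at 200 mM, and the labels do not say which of these a library had, nor whether a library pools plants. Unstressed leaves sampled after 0 h were not analysed here, so drought and clock time passed together and their effects cannot be told apart. The tissue is labelled leaf, while the source field speaks of seeds. Leaf and seed marker genes could not be looked up, because no names come with the IDs of the table. In whole leaves, a lower level cannot be told apart from fewer cells that express the gene. Nothing in the labels ties the 3 libraries of a group to separate plants, so the p-values reflect only how far these libraries scatter, which may be technical.

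Leaves that lose water accumulate the hormone abscisic acid, whose receptors then block a group of phosphatases and so free the SnRK2 kinases. These kinases phosphorylate transcription factors that bind ABA-responsive promoters. Genes that respond in the first hour include many regulators, and genes that respond later include protective proteins such as dehydrins and other late embryogenesis abundant proteins, and enzymes that make compatible solutes. None of the 24 IDs is paired with a name or a description in the sources used here (0 of 35519 IDs were found in the RefSeq gene table), so no member is placed in this pathway and members are called by their IDs.

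The FPKM totals of the libraries lay between 753424 and 855427. The steps between low values gave M28 8 h replicate 3 a relative depth of 0.517, with 1 for the median library, and put the other libraries between 0.888 and 1.26, so low values are less precise in that library. The depth in reads is unknown. Replicates of a group had Pearson correlations across genes of 0.969 to 0.989 on the log2 scale.

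All 24 members were higher in every library at 4 h than in any library of the same genotype at 0 h. The same held at 8 h, and the share of all genes so separated is not given. The rule asked for changes of this size, so that all 24 also passed limma at an adjusted p below 0.05 was fixed by the choice of members and nothing is read from it; of all genes tested, 19.9% passed as higher at 4 h in M28 and 27.7% in K326, and 33.2% at 8 h in M28 and 41.5% in K326. At 1, 2, 4 and 8 h the median log2 change over the members was 0.21, 0.51, 1.46 and 2.90 in M28 and 0.13, 0.76, 1.73 and 3.03 in K326. Over all genes tested, the medians lay between -0.02 and 0.12 in M28 and between 0.03 and 0.21 in K326. The 8 h changes spread from 2.01 to 5.22 in M28 and from 2.07 to 5.67 in K326. Averaged over both genotypes, the median member stood at 38.0 FPKM at 8 h, against 1.75 FPKM at 0 h; the median of all genes tested was 12.8 FPKM at 8 h, against 11.3 FPKM at 0 h. At 8 h the group means of the members ran from 7.75 to 966 FPKM.

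**Figure D1:**
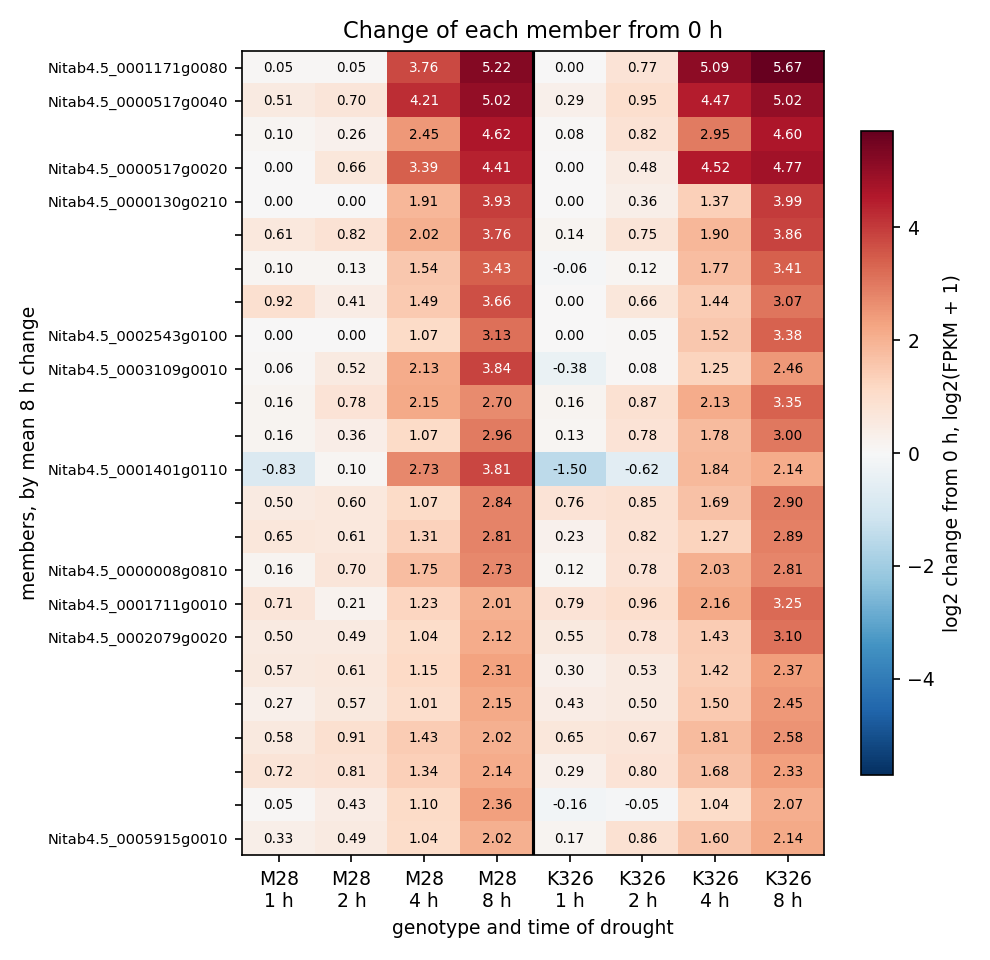
Log2 change of the 24 members from the 0 h mean of their own genotype, with M28 at 1, 2, 4 and 8 h in the left columns and K326 in the right ones, ordered by the mean 8 h change; IDs are printed for 11 of the members named in the text. The 1 and 2 h columns stay below 1 by the rule, and the 8 h columns run from 2.01 to 5.22 in M28 and from 2.07 to 5.67 in K326.

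The first 2 h were not silent for many members, within the limit of 1 that the rule set. At 2 h, 22 of 24 members were at or above their 0 h mean in both genotypes. The 4 members listed at 0 in all 6 libraries at 0 h could not fall below it, and the share of all genes is not given. By then 12 members in M28 and 17 in K326 had already gained 0.5 or more. By limma with Benjamini-Hochberg adjustment over all 19599 genes, 13 members passed an adjusted p below 0.05 as higher at 2 h in M28 (11.5% of all genes did) and 17 in K326 (24.1% of all genes). At 1 h these counts were 8 in M28 (12.6% of all genes) and 3 in K326 (17.9% of all genes), and 1 member was lower in K326 (12.8% of all genes). The rule used these changes, so the counts are only a description. The early part of the course also depends on the pseudocount. With 0.1 FPKM in place of 1 FPKM, 22 genes met the rule and 11 of them were members. The other 13 members then reached 1 at 1 h or 2 h, and 11 of these 13 stood under 3 FPKM at 0 h.

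Of the 24 members, 4 were listed at 0 in all 6 libraries at 0 h, and 8 had group means under 1 FPKM in both genotypes at that time. One of the 4 was Nitab4.5_0001171g0080, which also had the largest change. In M28 its libraries read 0, 0.101 and 0 FPKM at 1 h, 0.12, 0 and 0 FPKM at 2 h, 8.21, 13.8 and 17.2 FPKM at 4 h, and 28.3, 37.3 and 45.5 FPKM at 8 h. In K326 it was listed at 0 in the 3 libraries at 1 h and read 0.674, 1.08 and 0.429 FPKM at 2 h, 31.0, 30.6 and 38.3 FPKM at 4 h, and 36.1, 60.2 and 56.6 FPKM at 8 h. A value above 0 was thus seen in 1 of 3 M28 libraries at 1 h and again at 2 h, and in all 3 K326 libraries at 2 h. At 4 h every M28 library lay below every K326 library, while at 8 h the genotypes overlapped.

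Nitab4.5_0000130g0210 and Nitab4.5_0002543g0100 were also listed at 0 in all libraries at 0 h and had the largest steps from 4 to 8 h by the mean of the genotypes. Nitab4.5_0000130g0210 was listed at 0 in the 9 M28 libraries up to 2 h, then read 2.01, 2.77 and 3.69 FPKM at 4 h and 12.8, 14.9 and 15.2 FPKM at 8 h. In K326 it was listed at 0 up to 1 h and read 0.291, 0.623 and 0 FPKM at 2 h, 2.02, 1.52 and 1.25 FPKM at 4 h, and 13.0, 15.9 and 15.9 FPKM at 8 h. Its genotypes overlapped at 4 h and at 8 h. Nitab4.5_0002543g0100 was listed at 0 in M28 up to 2 h and read 1.02, 1.19 and 1.10 FPKM at 4 h and 7.19, 10.2 and 6.32 FPKM at 8 h. In K326 it had 0.0989 FPKM in 1 library at 2 h, 2.04, 2.03 and 1.55 FPKM at 4 h, and 7.41, 10.5 and 10.6 FPKM at 8 h. At 4 h every M28 library of this gene was below every K326 library, and at 8 h the genotypes overlapped. No fold over 0 h is given for genes listed at 0.

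The most abundant member, Nitab4.5_0001401g0110, had a different early course. In M28 it read 43.0, 52.3 and 37.3 FPKM at 0 h, 16.9, 22.3 and 37.0 FPKM at 1 h, 32.3, 63.7 and 50.9 FPKM at 2 h, 276, 281 and 335 FPKM at 4 h, and 563, 607 and 718 FPKM at 8 h. In K326 it read 188, 223 and 249 FPKM at 0 h, 154, 87.0 and 33.6 FPKM at 1 h, 122, 151 and 156 FPKM at 2 h, 702, 718 and 964 FPKM at 4 h, and 905, 978 and 1015 FPKM at 8 h. Every library at 1 h lay below every library at 0 h of the same genotype, and by 4 h all lay above. The change at 1 h was -0.83 in M28 (limma, SE 0.328, adjusted p = 0.0685) and -1.50 in K326 (SE 0.328, adjusted p = 0.001), and the 1 h libraries of K326 were spread over a wide range. By the mean of the genotypes it had the lowest change at 2 h of any member, with 0.10 in M28 and -0.62 in K326, followed by Nitab4.5_0002543g0100. In M28 alone Nitab4.5_0002543g0100 was lower, still listed at 0.

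This gene weighs on every sum over the members. At 8 h it held 32.0 to 38.5% of the members' summed FPKM in M28 libraries and 40.5 to 43.3% in K326 libraries. At 0 h it held 17.9 to 23.4% in M28 and 54.1 to 59.7% in K326. Without it, the summed FPKM of the members lay between 1146 and 1215 in M28 libraries at 8 h, against 171 to 179 at 0 h, and between 1330.3 and 1396 in K326 libraries at 8 h, against 159.9 to 173 at 0 h. All 24 together made up 0.232 to 0.247% of the FPKM total in M28 at 8 h, against 0.0266 to 0.0287% at 0 h. In K326 they made up 0.279 to 0.296% at 8 h, against 0.0407 to 0.05% at 0 h.

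Second in abundance at 8 h was Nitab4.5_0000008g0810, with a more even climb. In M28 it read 28.5, 28.2 and 24.9 FPKM at 0 h, 26.5, 27.2 and 39.1 FPKM at 1 h, 40.7, 47.0 and 47.1 FPKM at 2 h, 89.6, 97.5 and 94.2 FPKM at 4 h, and 172, 195 and 192 FPKM at 8 h. In K326 it read 33.2, 35.3 and 36.5 FPKM at 0 h, 42.4, 43.8 and 29.97 FPKM at 1 h, 59.0, 55.9 and 67.7 FPKM at 2 h, 137, 149.9 and 151 FPKM at 4 h, and 244, 253 and 254 FPKM at 8 h. The genotypes overlapped at 1 h, and at the other 4 times every M28 library lay below every K326 library.

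**Figure D2:**
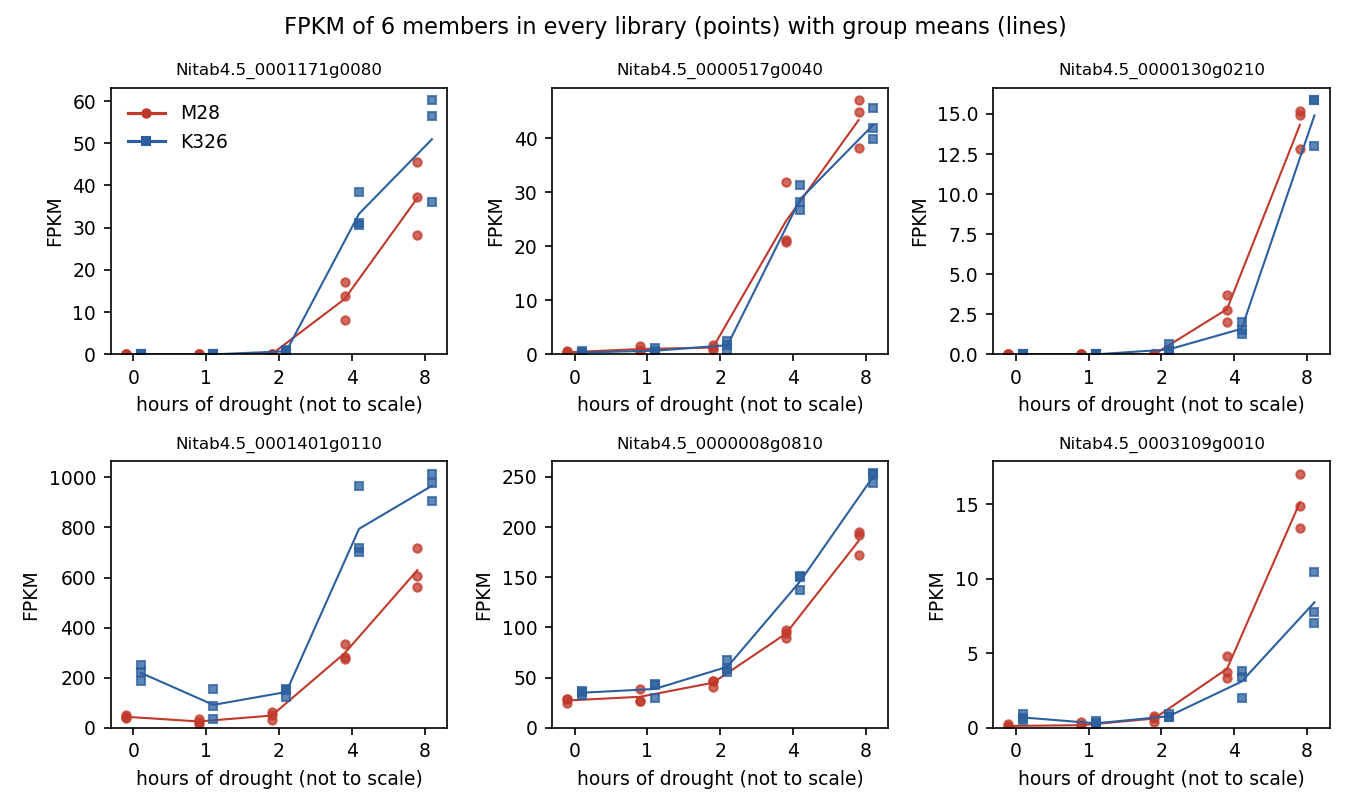
FPKM of 6 members in each library at 0, 1, 2, 4 and 8 h (points: M28 circles, set left of the K326 squares; lines: means of 3 libraries; linear axes that start at 0). Nitab4.5_0001401g0110 dips at 1 h before it climbs to a mean of 629 FPKM in M28 and 966 FPKM in K326, while Nitab4.5_0000130g0210 is at or near 0 until 4 h.

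The members were next compared by how much of their rise was complete at 4 h. In M28 the 4 h change was 34.3 to 83.8% of the 8 h change on the log2 scale, with a median of 52.4%. In K326 it was 34.3 to 94.9%, with a median of 60.5%, and the share was larger in K326 for 17 of 24 members. The step from 4 to 8 h was 1 or more in 17 members in M28, in 14 in K326 and in 12 in both. It passed the limma test at an adjusted p below 0.05 in 24 members in M28 (18.1% of all genes rose) and in 21 in K326 (19.4% of all genes rose). The rule had set a lower bound of 0 on this step and of 2 on the 8 h change, so nothing is read from these counts. At 8 h, all libraries lay above all 4 h libraries for 23 members in M28 and 21 in K326. The rule shaped this count too, and the share of all genes so separated is not given. By the mean of the genotypes, the largest steps were those of Nitab4.5_0000130g0210 (2.02 in M28 and 2.62 in K326) and Nitab4.5_0002543g0100 (2.06 in M28 and 1.86 in K326). In M28 alone the largest step of any member was 2.18.

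By the same mean, the smallest steps belonged to Nitab4.5_0000517g0020 (1.02 in M28 and 0.24 in K326) and, by a narrow margin, Nitab4.5_0000517g0040 (0.81 in M28 and 0.55 in K326), although the smallest step in M28 alone was 0.56. They are the only members that share a scaffold; the 24 members lie on 23 scaffolds. Nitab4.5_0000517g0020 was listed at 0 at 0 and 1 h and, in M28, read 0.617, 0.742 and 0.402 FPKM at 2 h, 7.15, 12.04 and 9.83 FPKM at 4 h, and 18.3, 15.8 and 28.4 FPKM at 8 h. In K326 it read 0.469, 0 and 0.856 FPKM at 2 h, 18.9, 21.5 and 26.2 FPKM at 4 h, and 19.6, 28.0 and 32.8 FPKM at 8 h. The K326 libraries at 4 h and 8 h overlap, while in M28 the 4 h libraries lie below those of 8 h. Whether the step of this gene differs between the genotypes was not tested. Nitab4.5_0000517g0040 averaged 0.37 FPKM at 0 h, 0.978 FPKM at 1 h, 1.26 FPKM at 2 h, 24.6 FPKM at 4 h and 43.3 FPKM at 8 h in M28. In K326 it averaged 0.343, 0.665, 1.69, 28.7 and 42.4 FPKM at the same times. Its 4 h libraries read 21.1, 20.8 and 31.8 FPKM in M28 and 26.8, 28.1 and 31.4 FPKM in K326, and the genotypes overlapped at every time.

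The position of the members was not used to choose them. The IDs hold a scaffold and a gene number, and between these members the table lists Nitab4.5_0000517g0030. It was no member, since its change at 8 h in M28 was just below that at 4 h. It was listed at 0 at 0 and 1 h and averaged 5.28 ± 1.51 FPKM (SD, n = 3) at 4 h and 5.35 ± 2.36 FPKM at 8 h in M28. In K326 it averaged 4.51 ± 1.31 and 6.67 ± 1.29 FPKM at these times. Nitab4.5_0000517g0050, the next ID, averaged 19.7 ± 2.34 FPKM at 8 h, against 10.2 ± 1.45 FPKM at 0 h, in M28 (SD, n = 3 each, with log2 change 0.89, SE 0.137, limma adjusted p = 5.57e-06). In K326 it averaged 18.9 ± 2.98 FPKM at 8 h, against 8.62 ± 0.523 FPKM at 0 h (log2 change 1.04, SE 0.137, adjusted p = 4.58e-07). For Nitab4.5_0000517g0060, the ID after that, the change was 0.12 in M28 (adjusted p = 0.421) and 0.09 in K326 (adjusted p = 0.545).

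Beside Nitab4.5_0001171g0080 lies Nitab4.5_0001171g0090, whose means were higher at each time in both genotypes. In M28 it averaged 0.255 FPKM at 0 h, 1.38 FPKM at 1 h, 5.27 FPKM at 2 h, 70.9 FPKM at 4 h and 73.9 FPKM at 8 h. In K326 it averaged 0.169, 0.863, 6.87, 71.8 and 78.3 FPKM. Its libraries at 4 h ran from 61.4 to 77.1 FPKM in M28 and from 65.8 to 75.1 FPKM in K326, and these overlapped, unlike those of its neighbour at 4 h. Its log2 change at 8 h was 5.92 in M28 (SE 0.226, limma adjusted p = 3e-17) and 6.09 in K326 (SE 0.226, adjusted p = 1.32e-17). The nearest tested ID on the other side of Nitab4.5_0001171g0080 was Nitab4.5_0001171g0060. That gene changed by -0.07 in M28 and 0.37 in K326 at 8 h and was not called higher in both genotypes.

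Across all members, the nearest tested IDs on either side gave 39 genes that were no members. Of these, 18 (46.2%) passed the limma test as higher at 8 h than at 0 h in both genotypes, where 28.1% of all genes tested did. Of the 39, 5 (12.8%) did so with a change of 1 or more in both, against 5.58% of all genes. The median 8 h change of the neighbours was 0.26 in M28 and 0.42 in K326, against 0.12 and 0.21 over all genes. Among the 39, 10 had a change below 0 at 8 h in both genotypes. By limma, 6 were called lower in M28 and 6 in K326, and the shares of all genes are not given for these. When the next 2 tested IDs on either side were taken, 24 of 72 (33.3%) were called. Neighbours are not independent of each other, no test of the count was made, and whether neighbouring genes share sequence, and so reads, was not tested.

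**Figure D3:**
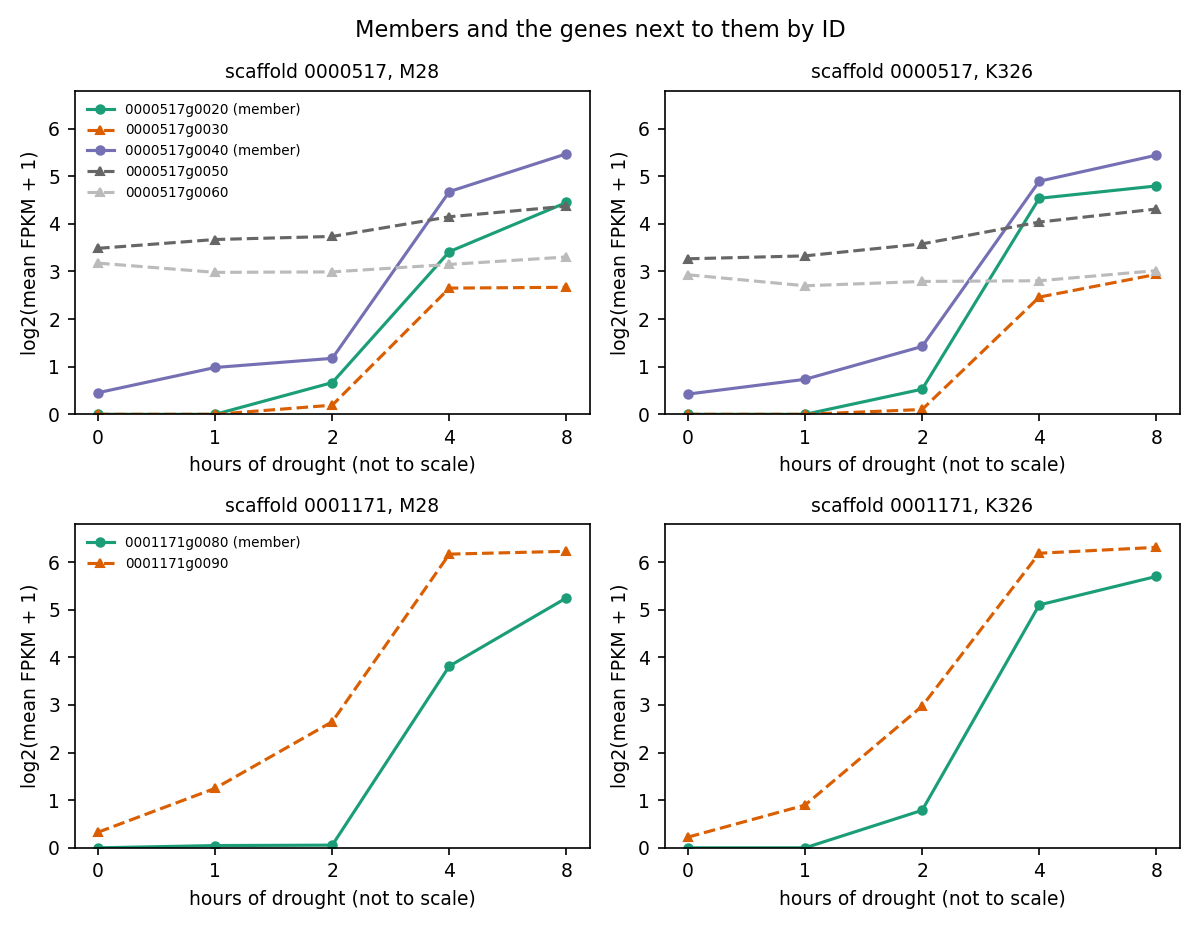
Log2 of the group mean FPKM plus 1 at 0, 1, 2, 4 and 8 h for members (solid lines) and the genes next to them by ID (dashed lines), with M28 on the left and K326 on the right. Beside Nitab4.5_0000517g0020 and Nitab4.5_0000517g0040, the gene between them also climbs at 4 h while Nitab4.5_0000517g0060 stays near its level, and Nitab4.5_0001171g0090 stands above the member Nitab4.5_0001171g0080 at each time. Nitab4.5_0001171g0060, on the other side of that member, is not drawn.

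Whether the members differed in level between M28 and K326 was tested on the mean of the 5 times, a contrast that is orthogonal to every change from 0 h in this balanced design and so was not used by the rule. The exception is the 8 members with group means under 1 FPKM at 0 h in both genotypes. For 4 of them, listed at 0 in all 6 libraries at 0 h, the difference comes only from values after 0 h, whose changes the rule bounded. For the others the 0 h values lie near 0, so much of the difference can come from such later values. By limma with adjustment over all 19599 genes, 15 of 24 members (62.5%) differed, 7 higher in M28 (54.2% of all genes were) and 8 lower (14% of all genes were). The share that differed is near the 68.1% of all genes. The median difference was -0.03 over the members and 0.16 over all genes, and median-of-ratios scaling, which centres the genes, moved these to -0.15 and 0.00. Under that scaling the split was 6 higher and 11 lower. The shares of all genes above belong to the unscaled values, and those under the scaling are not given, so nothing is read from this split. Differences of called members ran from 0.31 to 1.17 upward and from -0.26 to -1.51 downward. For the 9 members that did not pass, the differences lay between -0.17 and 0.08 with SEs of 0.0437 to 0.1.

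The largest difference was again that of Nitab4.5_0001401g0110, lower in M28 by a log2 difference of -1.51 (SE 0.147, limma adjusted p = 2.01e-09), and its genotypes did not overlap at 4 of 5 times. Group means at 0, 1, 2, 4 and 8 h were 44.2, 25.4, 48.9, 297 and 629 FPKM in M28 and 220.1, 91.7, 143, 795 and 966 FPKM in K326. Nitab4.5_0001171g0080 was also lower in M28 (-0.49, SE 0.0903, limma adjusted p = 3.81e-05), without overlap at 2 h and 4 h. The difference was -0.82 with a pseudocount of 0.1 FPKM. Since this gene was listed at 0 at 0 h in both genotypes, its difference comes only from values after 0 h. In the other direction, Nitab4.5_0002079g0020 was higher in M28 by 1.17 (SE 0.115, limma adjusted p = 2.37e-09), or 2.06 with a pseudocount of 0.1 FPKM. It averaged 2.04, 3.33, 3.38, 5.30 and 12.6 FPKM at the 5 times in M28 and 0.0738, 0.573, 0.949, 1.91 and 8.36 FPKM in K326, without overlap at 0, 1, 2 and 4 h. Nitab4.5_0005915g0010 was higher in M28 by 0.94 (SE 0.0651, adjusted p = 3.76e-12), and its genotypes did not overlap at any of the 5 times. At 8 h it read 38.2, 40.6 and 43.0 FPKM in M28 and 19.1, 20.6 and 19.98 FPKM in K326. At 0 h it read 9.38, 8.83 and 9.67 FPKM in M28 and 4.5, 3.2 and 3.62 FPKM in K326. All libraries of M28 lay above those of K326 at 4 or more times in 3 members (22.1% of all genes) and below them in 3 (4.94% of all genes).

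**Figure D4:**
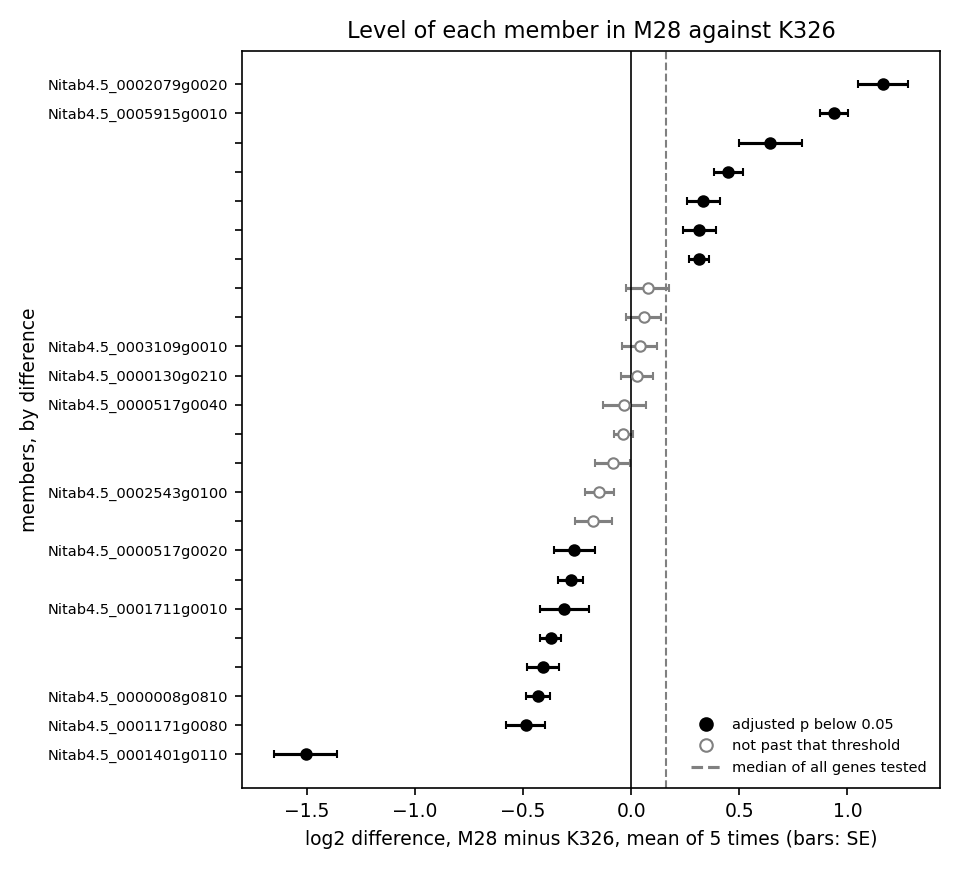
Log2 difference of each of the 24 members, M28 minus K326, as the mean of the 5 times (points; bars are the SE; filled points passed an adjusted p below 0.05), with the median of all genes tested as a dashed line at 0.16. The members spread on both sides of 0, from -1.51 to 1.17, with 7 called higher and 8 called lower in M28.

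The size of the response was then set side by side between the genotypes. The 4 h change was larger in K326 for 16 of 24 members, and the 8 h change for 18 of 24; over all genes tested the 4 h change was larger in K326 for 58.7% and the 8 h change for 62.2%. The median difference of the changes, M28 minus K326, was -0.31 at 4 h and -0.08 at 8 h over the members, and -0.06 and -0.09 over all genes. By limma's moderated F test, the courses differed between the genotypes in 6 members (10.2% of all genes did). At 8 h alone 4 members passed (9.14% of all genes). At 4 h alone 3 members passed, all with the smaller change in M28 (3.18% of all genes), and these were Nitab4.5_0001171g0080 (-1.33), Nitab4.5_0000517g0020 (-1.13) and Nitab4.5_0002990g0020 (-0.49), which was named after its values were seen. The rule put bounds on the changes in each genotype, so nothing is read from these counts.

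At 8 h the members did not all lean the same way. Nitab4.5_0003109g0010 had the smaller start and the larger rise in M28. Its M28 libraries read 0, 0.249 and 0.133 FPKM at 0 h, 3.34, 3.73 and 4.81 FPKM at 4 h, and 14.9, 17.0 and 13.4 FPKM at 8 h. Its K326 libraries read 0.521, 0.628 and 0.936 FPKM at 0 h, 3.84, 2.03 and 3.44 FPKM at 4 h, and 7.02, 7.80 and 10.4 FPKM at 8 h. M28 lay below K326 at 0 h and above it at 8 h without overlap at either time, so the 8 h changes were 3.84 in M28 and 2.46 in K326 (difference 1.37, SE 0.259, or 2.8 with a pseudocount of 0.1 FPKM). Nitab4.5_0001401g0110 had 8 h changes of 3.81 in M28 and 2.14 in K326 (difference 1.67, SE 0.464), from a lower 0 h level in M28.

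Nitab4.5_0001711g0010 took the opposite course. It read 16.0, 21.5 and 18.9 FPKM at 0 h and 89.1, 105 and 51.0 FPKM at 8 h in M28, and 11.02, 19.7 and 15.8 FPKM at 0 h and 200.1, 158 and 111 FPKM at 8 h in K326. The 8 h changes were 2.01 in M28 and 3.25 in K326 (difference -1.24, SE 0.361), and the lowest M28 value at 8 h came from the library of low depth, without which the difference was -0.94. Its 8 h libraries did not overlap between the genotypes, and those of 0 h did. For Nitab4.5_0002079g0020 the 8 h changes were 2.12 in M28 and 3.10 in K326 (difference -0.98, SE 0.362, or -3.28 with a pseudocount of 0.1 FPKM), and its 0 h level was higher in M28.

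The edge of the rule runs through a dense range of values. Of the members, 11 lay within 0.1 of a cut and 18 within 0.2, and 11 other genes missed the rule by less than 0.1. The member nearest to a cut was Nitab4.5_0001711g0010, with a change of 2.01 at 8 h in M28, and the nearest gene outside had 1.99 at that time. Of the 60 genes that met the rule in K326 only, 42 were under 1 at 4 h in M28 and 33 under 2 at 8 h. In M28, 56 of the 60 still gained 1 or more by 8 h. Of the 35 genes that met it in M28 only, 25 had reached 1 at 2 h in K326 and all 35 gained 1 or more by 8 h. Each set was chosen by failing the rule in the other genotype, so nothing is read from these failures. Leaving out each library in turn kept 14 of 24 members every time, and median-of-ratios scaling kept 16 members and added none.

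For comparison, 32 genes stayed under 1 through 4 h and gained 2 or more at 8 h in both genotypes, and 67 gained 1 or more at 1 h and 2 or more at 8 h. Over the 5 times, 50% of the first set and 67.2% of the second differed in level between M28 and K326, beside 62.5% of the members. Their median levels at 0 h were 3.73 and 3.36 FPKM, beside 1.75 FPKM for the members, and their median genotype differences were 0.04 and 0.21, beside -0.03. The courses differed between genotypes in 15.6% and 31.3% of these sets, beside 25% of the members. These differences between sets were not tested.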

How the data were processed

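Leaf RNA of 30 libraries was analysed from 1 table of FPKM values that the authors deposited, with 1 column per library and replicates not pooled. FPKM was taken from the authors' name for the table and from its values, whose totals differ between libraries. The submitters' processing notes name HISAT2, featureCounts, Trimmomatic and FastQC. Their roles and versions, the genome build and how FPKM was computed are not given in the sources used here. Groups, times and replicate numbers came from the sample titles.

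Values were used as deposited, as log2(FPKM + 1), which understates changes of low genes, for 19599 genes averaging 1 FPKM or more. All 10 groups entered 1 fit with limma 3.58.1 in R 4.3.3 (mean-variance trend, empirical Bayes), with Benjamini-Hochberg adjustment within each contrast and a threshold of 0.05. SE is that of the moderated fit. The fit was tested on simulated data. Other pseudocounts, filters, scalings and rule thresholds, a replicate block and leaving out each library were tried. Relative depth was the commonest ratio between libraries of the values of genes seen in few libraries. Neighbours were the nearest tested IDs by gene number on a scaffold.

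Named members were the 2 most extreme by 8 h change, abundance, 4 to 8 h step in each direction, 2 h change, genotype difference in each direction and difference of the 8 h changes in each direction, with at least 5 FPKM at 8 h in each genotype outside the abundance part, and the pair nearest on 1 scaffold. Genes of a scaffold next to the named members were chosen after their values were seen. The members, lists and tests were chosen with earlier results of these data known. The gene lists planned for named genes could not be matched and are not reported.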

Additional observations from a re-analysis of the deposited data

Results flagged for a closer look

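These values are differences between the genotypes in changes that the rule had bounded in each genotype, for genes named as the most extreme members, so they are listed for a closer look and support nothing. By limma's moderated F test at an adjusted p below 0.05, the courses of 6 of 24 members differed, and those of 10.2% of all genes tested. For single members at 8 h, the difference of the changes, M28 minus K326, was 1.37 for Nitab4.5_0003109g0010 (limma adjusted p = 0.00129), 1.67 for Nitab4.5_0001401g0110 (adjusted p = 0.0233) and -1.24 for Nitab4.5_0001711g0010 (adjusted p = 0.0299). Of these, Nitab4.5_0001401g0110 (limma F test, adjusted p = 0.126) and Nitab4.5_0001711g0010 (adjusted p = 0.0598) were not among the 6. The other member called at 8 h, Nitab4.5_0000054g0220, was outside the named members. Its difference was -0.55 (limma adjusted p = 0.0213), and it was among the 6 (limma F test, adjusted p = 0.00639). Its call was not followed with libraries left out.

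The call for Nitab4.5_0003109g0010 held with each of the 30 libraries left out in turn, between 1.27 and 1.52. Nitab4.5_0001401g0110 lost its call without M28 0 h replicate 3 (1.56, adjusted p = 0.0641), M28 8 h replicate 3 (1.57, adjusted p = 0.0518) or K326 0 h replicate 3 (1.58, adjusted p = 0.0526). Nitab4.5_0001711g0010 lost its call without M28 0 h replicate 2 (-1.15) or 3 (-1.23), M28 8 h replicate 3 (-0.94), K326 0 h replicate 1 (-1.03) or K326 8 h replicate 1 (-1.05) or 2 (-1.22), with adjusted p values between 0.0597 and 0.0953.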

How the results depend on the processing

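The number of members was 24, between 20 and 27 with any 1 library left out and between 16 and 28 under the other settings, and which genes these were moved more: 19 to 24 of the members were shared when a library was left out, and 11 with a pseudocount of 0.1 FPKM. The count of members that differed between M28 and K326 over the 5 times was 15. It was between 15 and 16 without single libraries and between 13 and 17 under the other settings. The split was 7 higher and 7 lower at equal FPKM totals and 6 higher and 11 lower after quantile normalization. The median difference over all genes was 0.24 at equal FPKM totals and 0.01 after quantile normalization. The shares of all genes called under these settings are not given, so nothing is read from the splits. The median difference over the members was -0.03, with -0.17 to 0.04 under other settings, so its sign depended on them. The named differences in level kept their direction and their call in each setting where the gene was tested. The interaction count was 6, between 4 and 8 without single libraries, where the shares of all genes are not given. The count of 18 neighbours was 12 to 18 without single libraries and 12 of 39 after median-of-ratios scaling, where 18.5% of all genes were called. The difference of the 8 h changes of Nitab4.5_0001711g0010 was -1.07 and no longer called after quantile normalization (adjusted p = 0.0672). That of Nitab4.5_0002079g0020 was not called (-0.98, adjusted p = 0.0896), and was called with a pseudocount of 0.1 FPKM (-3.28) and without M28 8 h replicate 1 (-1.21). Same-numbered libraries of different groups had a median correlation of 0.0175 over 135 pairs, with 17 over 0.1. These are not the correlations of replicates within a group given above. Of the 30 libraries, 12 correlated best with their own number. These values do not settle whether the numbers pair the samples. With the replicate block 15 members differed in level and 4 in the interaction, again without the shares of all genes. The causes of these shifts were not tested. Depth in reads is unknown, which limits what can be said of values near 0.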
